A study of Mus musculus with 18 samples.

Results

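Caspases are cysteine proteases that carry out inflammatory cell death and apoptosis. The 7 caspase genes described here, Casp1, Casp4, Casp12, Casp2, Casp6, Casp8 and Casp9, were taken by symbol from the 47729 genes counted in the colon of 9 mice, and each symbol matched 1 Ensembl identifier. The mice, on the C57BL/6 background, fell into 3 groups of 3. Naive WT mice (mice 1 to 3) carried the treatment label for untreated controls. WT CAC mice (mice 4 to 6) were WT mice with colitis-associated cancer (CAC), induced by a single dose of the carcinogen azoxymethane (AOM, 10 mg/kg) and 3 cycles of 2.5% dextran sulfate sodium (DSS), which injures the colon epithelium. Cldn2TG CAC mice (mice 7 to 9) were given the same treatment and carried a Claudin-2 transgene under the villin promoter, which is active in intestinal epithelium. No untreated Cldn2TG mice were included. Cldn2TG CAC and naive WT mice therefore differed in both genotype and treatment, whose parts cannot be told apart in that comparison. Age is not given in the sources used here, and the labels do not say which piece of colon was taken or whether it held tumors.

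Casp1, Casp4 and Casp12 form the inflammatory group. Caspase-1 is recruited by inflammasomes, multiprotein sensors of infection and damage, and cleaves the precursors of IL-1β and IL-18 as well as gasdermin D, whose fragments form pores in the membrane. The mouse Casp4 product binds bacterial lipopolysaccharide directly and also cleaves gasdermin D, and caspase-12 belongs to the same group by sequence and has mostly been studied in endoplasmic reticulum stress. In the apoptotic group, caspase-8 is started by death receptors, caspase-9 by the apoptosome that forms when mitochondria release cytochrome c, and caspase-2 by the PIDDosome, while caspase-6 acts downstream and cleaves lamins. All are made as precursors that are activated by assembly or cleavage, so that an RNA level is not a measure of activity.

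The family shares a short active-site stretch, which is printed from the GENCODE M21 transcripts of GRCm38 to show how alike the members are at the point of catalysis. The 15 capitals are the codons around the catalytic cysteine, and each span on the genome includes an intron where the stretch lies in a pair of exons.
Casp1, chr9:5303750-5304191, exons 6 and 7 of 10: atcattattCAGGCATGCCGTGGAgagaaa
Casp4, chr9:5324934-5327180, exons 5 and 6 of 9: atcattgtgCAGGCCTGCAGAGGTgggaac
Casp12, chr9:5353844-5354538, exons 7 and 8 of 11: ctcatcatgCAGGCCTGCAGAGGCagatat
Casp2, chr6:42276761-42279781, exons 8 and 9 of 11: ttcttcatcCAAGCATGTCGTGGAgatgag
Casp6, chr3:129910687-129912135, exons 5 and 6 of 7: tttatcatcCAGGCCTGTCGGGGTagccag
Casp8, chr1:58844604-58844633, exon 9 of 10: tttttcattCAGGCTTGCCAAGGAagtaac
Casp9, chr4:141807238-141811543, exons 6 and 7 of 9: ttcttcatcCAGGCCTGCGGTGGTgagcag

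Within the 15 capitals, Casp4 and Casp12 differed at 1 base, Casp1 and Casp4 at 4 bases, and Casp2 differed from both Casp4 and Casp12 at 6 bases. Beyond this stretch the genes were distinct enough to be counted apart. The longest run of identical bases in any pair of protein-coding transcripts was 21 bases, between Casp4 and Casp12, and the other 20 pairs shared at most 15 bases. Casp9 was the only member with an exon that overlaps another gene, and those genes, Ctrc and Cela2a on the opposite strand, had a mean of 0 and 0.0885 CPM (the counts of a gene relative to all counts of its library, scaled for library composition), against 34.0 CPM for Casp9.

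The 3 inflammatory caspases lie next to each other on chromosome 9 on the plus strand, in the order Casp1 (chr9:5298517-5307265, ENSMUSG00000025888), Casp4 (chr9:5308828-5336783, ENSMUSG00000033538) and Casp12 (chr9:5345430-5373032, ENSMUSG00000025887). Only 1562 bases separate Casp1 from Casp4, and 8646 bases separate Casp4 from Casp12. Their promoters are shown because these neighbors differed in how their RNA varied among the mice. Each is the 300-base RefSeq window on GRCm38.p6, and capitals mark matches to the STAT motif TTCNNNGAA or the NF-kB consensus on either strand.
Casp1 promoter, chr9:5298267-5298566, plus strand: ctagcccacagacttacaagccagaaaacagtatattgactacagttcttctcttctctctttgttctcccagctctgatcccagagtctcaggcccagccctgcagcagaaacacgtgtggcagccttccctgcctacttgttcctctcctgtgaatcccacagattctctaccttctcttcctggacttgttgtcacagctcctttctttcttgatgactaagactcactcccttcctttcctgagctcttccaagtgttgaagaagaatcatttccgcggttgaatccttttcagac
Casp4 promoter, chr9:5308599-5308898, plus strand: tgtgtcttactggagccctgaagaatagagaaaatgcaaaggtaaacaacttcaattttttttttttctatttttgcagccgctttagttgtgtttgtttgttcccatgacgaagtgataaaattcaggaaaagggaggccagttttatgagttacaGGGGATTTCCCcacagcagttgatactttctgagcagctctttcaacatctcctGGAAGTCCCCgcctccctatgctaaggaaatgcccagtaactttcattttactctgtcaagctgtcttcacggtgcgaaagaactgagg
Casp12 promoter, chr9:5345226-5345525, plus strand: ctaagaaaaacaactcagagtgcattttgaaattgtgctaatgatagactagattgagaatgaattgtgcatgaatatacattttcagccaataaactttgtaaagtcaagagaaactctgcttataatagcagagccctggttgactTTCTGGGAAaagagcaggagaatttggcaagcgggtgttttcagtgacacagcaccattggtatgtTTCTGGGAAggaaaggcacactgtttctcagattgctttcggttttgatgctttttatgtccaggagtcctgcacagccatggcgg

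The Casp12 window held the STAT motif at 2 places, with first bases 102 and 36 bases before the start site. The Casp4 window held 3 matches to the NF-kB consensus, of which 2 overlap, and a second annotated Casp4 start 11 bases downstream gave a window with the same matches. The Casp1 window held neither motif, and the windows of Casp2, Casp6, Casp8 and Casp9 held no match either. None of the 7 genes had a match to GAAANNGAA, the core of the interferon-stimulated response element. Of all 32851 promoter windows of this length, 8.30% held the STAT motif, 8.46% the NF-kB consensus and 8.56% the interferon motif. A match of letters is a description and not a bound site.

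The libraries held 14142711 to 22262546 counts per mouse, so that a limit of 3 counts corresponded to 0.130 to 0.222 CPM. Lanes of a library differed by no more than sampling noise (chi-square per degree of freedom 0.995 to 1.06) and were summed. Cldn2 was at 208, 218 and 251 CPM in Cldn2TG CAC mice and 119, 137 and 132 CPM in WT CAC mice, a 1.72-fold difference (log2 0.78, SE 0.12, edgeR adjusted p = 0.0103), while naive WT mice had 192 to 259 CPM. Naive WT mouse 1 stood apart from the other 8 mice in sex-linked genes. It had 214 CPM of Xist, the RNA of the inactive X chromosome, against at most 0.203 CPM elsewhere, and 0.149 CPM of the Y-linked gene Ddx3y against 34.1 to 51.8 CPM, so the counts of calls on the lists below are also given without it where they change. WT CAC mouse 4 lay between the groups for several inflammatory genes, and those counts are given without it too. It was singled out from these values, so more calls without it follow from the choice, and they are no further evidence. Over all genes tested, the share called rose without mouse 4 from 9.54% to 19.2% in Cldn2TG CAC against WT CAC mice and from 15% to 25.7% in WT CAC against naive WT mice. Without any 1 of the other 5 mice it fell to between 0.382% (mouse 8) and 5.19% in the first and between 0.847% (mouse 2) and 7.9% in the second. Without mouse 1 it was 3.96% in WT CAC and 6.25% in Cldn2TG CAC against naive WT mice, so calls lost or gained below stand beside like changes over all genes. Epithelial markers were abundant in every mouse, and the summed level of 12 of them spanned 22540 to 23980 CPM in naive WT, 20120 to 27630 CPM in WT CAC and 22610 to 29080 CPM in Cldn2TG CAC mice.

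In levels per transcript length (TPM, a share of all transcripts), Casp1 was the most abundant of the 7 genes in every group. Its mean was 282 ± 7.85 TPM in naive WT, 290.3 ± 43.1 TPM in WT CAC and 306 ± 14.8 TPM in Cldn2TG CAC mice (SD, n = 3), which was 55.1% to 68.1% of the summed TPM of the 7 genes. Casp8 came next in naive WT mice with 107 ± 7.97 TPM, followed by Casp4 with 26.5 ± 5.95, Casp2 with 24.2 ± 1.66, Casp9 with 18.0 ± 0.825, Casp6 with 13.9 ± 2.0 and Casp12 with 2.0 ± 0.373 TPM. Casp4 and Casp2 overlapped within their spread in this order, whereas Casp12 was clearly last. The lengths are those of all annotated exons merged, which lowers the per-length level of genes with long alternative exons.

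**Figure D1:**
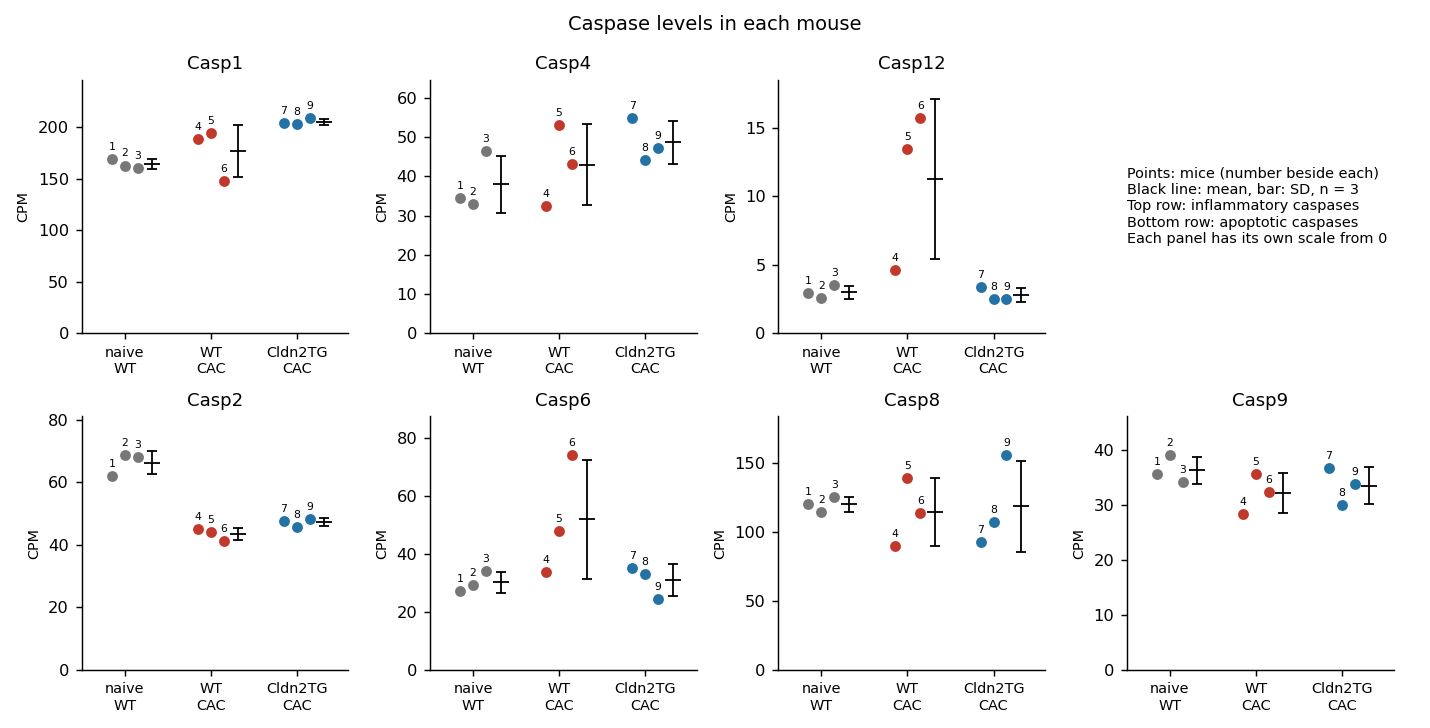
CPM of each caspase (y axes, each from 0) in naive WT, WT CAC and Cldn2TG CAC mice, with a numbered point for each mouse and the mean and SD of 3 mice in black. Casp12 stood at 4.62 to 15.7 CPM in WT CAC mice and at 2.48 to 3.47 CPM in the other mice, and Casp2 stood at 62.1 to 68.7 CPM in naive WT mice and at 41.3 to 48.2 CPM in the treated mice.

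Of the inflammatory group, Casp12 was called in both comparisons with WT CAC mice, and Casp1 and Casp4 in neither. Casp12 was at 2.89, 2.56 and 3.47 CPM in naive WT mice, 4.62, 13.4 and 15.7 CPM in WT CAC mice, and 3.38, 2.48 and 2.51 CPM in Cldn2TG CAC mice. All 3 WT CAC mice were above all 6 other mice, but mouse 4 was close to them and mice 5 and 6 were far above. The values rest on 91, 303 and 234 counts in WT CAC mice and 34 to 80 counts in the others. Casp12 rose 3.83-fold in WT CAC over naive WT mice (log2 1.94, SE 0.43, edgeR adjusted p = 0.0270) and was 4.07-fold lower in Cldn2TG CAC than in WT CAC mice (log2 -2.03, SE 0.43, adjusted p = 0.0256). Cldn2TG CAC and naive WT mice overlapped (log2 -0.09, 95% interval -0.64 to 0.46, adjusted p = 0.850). These comparisons share mice, the WT CAC mice being common to both calls, so they are not independent of each other.

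The Casp12 calls depended on single mice, while the size of the difference changed less. In the comparison of Cldn2TG CAC with WT CAC mice the call was lost without mouse 5, 6, 7, 8 or 9 (adjusted p 0.0658 to 0.118), and without mouse 4 the adjusted p was 0.000205. Over all 14 alternatives the log2 difference lay between -2.39 and -1.69. Against naive WT mice the call was lost without mouse 1, 2, 3, 5 or 6 (adjusted p 0.0691 to 0.107), with log2 differences of 1.62 to 2.30 over the alternatives. Without naive WT mouse 1 the value was 1.91, at an adjusted p of 0.0873.

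Casp1 varied little. It was at 169.5, 163 and 160.3 CPM in naive WT mice, 188, 194 and 148 CPM in WT CAC mice, and 204, 203 and 209 CPM in Cldn2TG CAC mice. The 3 Cldn2TG CAC mice were above the other 6, and WT CAC mouse 6 was the lowest of all. Casp1 was 1.26-fold higher in Cldn2TG CAC than in naive WT mice (log2 0.33, SE 0.09, edgeR adjusted p = 0.0360). That call held in 5 of 14 alternatives. It was lost with library size as the only scaling (log2 0.21, adjusted p = 0.125), with all 9 mice in the fit (0.142), in lane 2 alone (0.0599) and when any 1 of the 6 mice was left out (0.0566 to 0.140). Against WT CAC mice the difference was 0.19 (95% interval -0.11 to 0.50, adjusted p = 0.453), and between WT CAC and naive WT mice it was 0.13 (-0.16 to 0.42, adjusted p = 0.505).

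Casp4 was not called in any comparison. Its levels were 34.5, 33.0 and 46.4 CPM in naive WT mice, 32.6, 53.2 and 43.1 CPM in WT CAC mice, and 54.8, 44.2 and 47.2 CPM in Cldn2TG CAC mice. The order of the group means was naive WT, WT CAC and Cldn2TG CAC, and each group overlapped its neighbor. The log2 difference was 0.20 in WT CAC over naive WT mice (95% interval -0.26 to 0.67, edgeR adjusted p = 0.520) and 0.16 in Cldn2TG CAC over WT CAC mice (-0.26 to 0.58, adjusted p = 0.697). For Cldn2TG CAC against naive WT mice it was 0.37 (0.05 to 0.68, adjusted p = 0.136). Without the filter on low counts this last difference passed (adjusted p = 0.0364).

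Casp12 was a small fraction of its neighbor Casp1 in every mouse. Its CPM was 1.57% to 2.17% of that of Casp1 in naive WT mice and 1.20% to 1.65% in Cldn2TG CAC mice. In WT CAC mice it was 2.45%, 6.91% and 10.6%, above all other mice.

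Among the apoptotic caspases, Casp2 (chr6:42264985-42282508, ENSMUSG00000029863) fell in both treated groups. It was at 62.1, 68.7 and 68.1 CPM in naive WT mice, 45.0, 44.0 and 41.3 CPM in WT CAC mice, and 47.5, 45.8 and 48.2 CPM in Cldn2TG CAC mice. Every treated mouse was below every naive mouse. The level was 1.5-fold lower in WT CAC (log2 -0.58, SE 0.10, edgeR adjusted p = 0.0145) and 1.4-fold lower in Cldn2TG CAC (log2 -0.49, SE 0.09, adjusted p = 0.0108) than in naive WT mice, which served as the control in both. The treated groups differed by 0.09 (95% interval -0.16 to 0.35, adjusted p = 0.710), although their mice did not overlap. The Casp2 call against naive WT mice held in 12 of 14 alternatives for WT CAC, with losses without naive WT mouse 2 (0.0723) or 3 (0.0624), and in 13 of 14 for Cldn2TG CAC, with a loss without naive WT mouse 3 (0.0501). Without naive WT mouse 1 it was called in both (0.0434 and 0.0232). The mitochondrial share of counts split the mice in the same way, at 2.86% to 3.5% in naive WT mice. It was 3.54% to 4.69% in WT CAC and 4.575% to 5.76% in Cldn2TG CAC mice. Whether it bears on the Casp2 values was not tested.

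Casp6 (chr3:129901425-129914103, ENSMUSG00000027997) had its highest values in the same WT CAC mice as Casp12. It was at 27.1, 29.3 and 33.9 CPM in naive WT mice, 33.7, 47.9 and 74.0 CPM in WT CAC mice, and 35.2, 33.0 and 24.5 CPM in Cldn2TG CAC mice. Mice 5 and 6 were above all others, and mouse 4 lay within the range of the other groups. The mean was 1.75-fold that of naive WT mice (log2 0.81, SE 0.27, edgeR adjusted p = 0.0808) and the value in Cldn2TG CAC mice was 0.589 of that in WT CAC mice (log2 -0.76, SE 0.28, adjusted p = 0.140), and neither passed the threshold. Single mice set the size of both. Without mouse 6 the log2 differences were 0.46 (adjusted p = 0.155) and -0.40 (adjusted p = 0.360), and without mouse 4 they were 1.04 (adjusted p = 0.00880) and -0.99 (adjusted p = 0.0124). DESeq2 called both (adjusted p = 0.0197 and 0.0470).

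Casp8 (chr1:58795374-58847503, ENSMUSG00000026029) and Casp9 (chr4:141793612-141815976, ENSMUSG00000028914) were not called in any comparison, and their groups overlapped throughout. Casp8 was at 120.3, 115 and 125.5 CPM in naive WT mice, 89.8, 139 and 114 CPM in WT CAC mice, and 92.9, 107.5 and 156 CPM in Cldn2TG CAC mice. The naive mice sat close together and the treated mice spread to both sides of them. The log2 difference of Casp8 was -0.05 (95% interval -0.41 to 0.31) for WT CAC against naive WT mice and 0.03 (-0.47 to 0.54) for Cldn2TG CAC against WT CAC mice. Casp9 was at 35.6, 39.1 and 34.1 CPM in naive WT mice, 28.4, 35.7 and 32.4 CPM in WT CAC mice, and 36.7, 30 and 33.8 CPM in Cldn2TG CAC mice. Its log2 differences were -0.15 (-0.43 to 0.14) and 0.04 (-0.28 to 0.36) for the same comparisons. All of these intervals include 0.

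**Figure D2:**
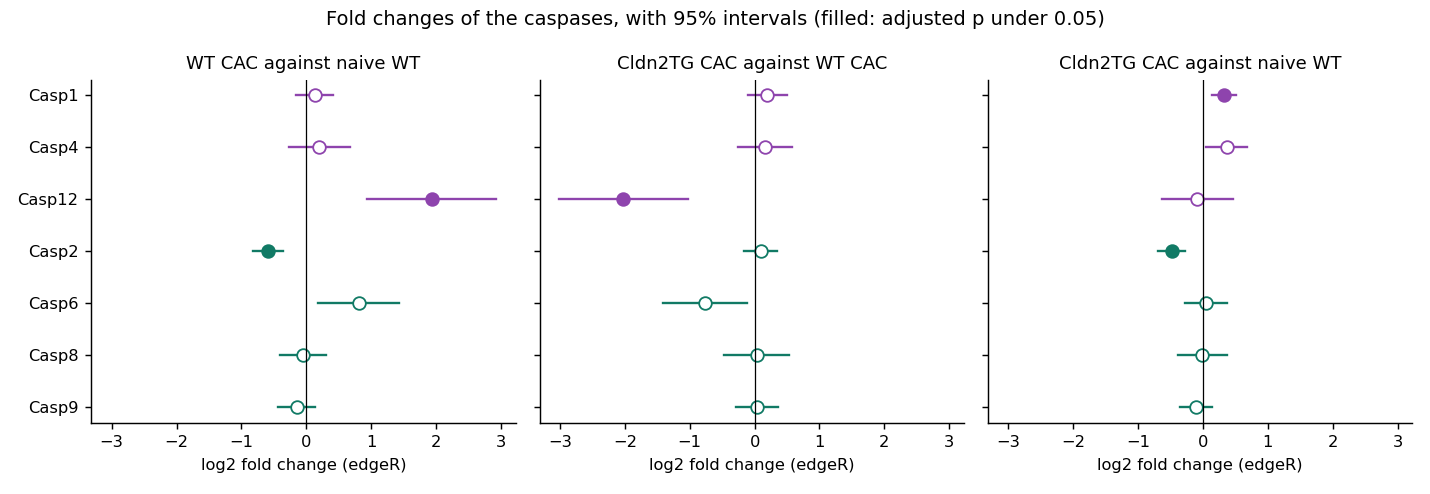
Log2 fold change of each caspase (x axis) in the 3 comparisons, from edgeR, with 95% intervals as bars and filled points where the adjusted p was under 0.05. Inflammatory caspases are purple and apoptotic caspases green; Casp12 is the only point beyond a log2 value of 1, at 1.94 in WT CAC against naive WT mice and -2.03 in Cldn2TG CAC against WT CAC mice.

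Of the 7 caspases of the 2 groups, 1 was called in Cldn2TG CAC against WT CAC mice (0 higher, 1 lower). There 9.54% of 14888 genes tested were called, 2.19% higher and 7.35% lower. In WT CAC against naive WT mice 2 of 7 were called (1 higher, 1 lower), beside 15% of 15437 genes, 8.04% higher and 6.92% lower. In Cldn2TG CAC against naive WT mice 2 of 7 were called (1 higher, 1 lower), beside 10% of 15013 genes, 3.92% higher and 6.07% lower. The groups did not overlap for 3, 2 and 2 of the 7 genes, against 28.5%, 38.0% and 31.2% of all genes tested. Median log2 differences of the 7 were 0.04, 0.13 and -0.01, and of all genes 0.01, 0.02 and 0.00. With 7 members these counts rest on single genes. Casp14, a caspase described below, is not among the 7. It was called as higher in Cldn2TG CAC against WT CAC and as lower in WT CAC against naive WT mice.

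The balance between the groups was set as the mean log2 CPM of the 3 inflammatory caspases minus that of the 4 apoptotic ones in each mouse, a description without a test. It was -1.0, -1.17 and -0.91 in naive WT mice, -0.53, -0.14 and -0.32 in WT CAC mice, and -0.53, -0.72 and -0.76 in Cldn2TG CAC mice. All treated mice were above all naive mice, and the means (SD, n = 3) were -1.03 ± 0.13, -0.33 ± 0.20 and -0.67 ± 0.12. Both the order of the treated groups and the position of all treated mice above the naive mice rested on Casp12. Without it WT CAC mouse 6, at 0.46, lay below naive mice 1 and 3, at 0.56 and 0.62. The means were then 0.53 ± 0.10, 0.71 ± 0.21 and 1.04 ± 0.07, and the difference of Cldn2TG CAC minus WT CAC changed from -0.34 to 0.33. The lower-abundance Casp12 weighs as much as Casp1 in a mean of log values.

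**Figure D3:**
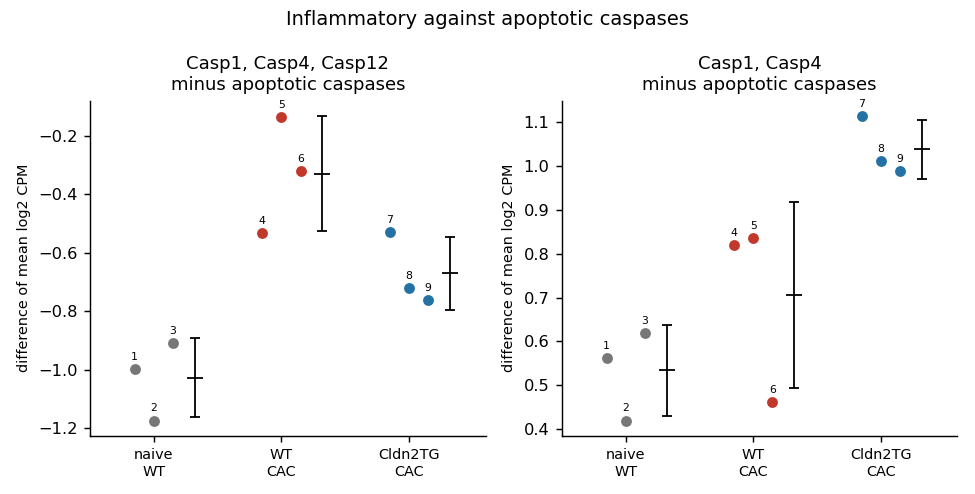
Difference between the mean log2 CPM of inflammatory and apoptotic caspases (y axes) in each mouse, with all 3 inflammatory caspases on the left and without Casp12 on the right; points are numbered mice, black lines the mean and SD of 3 mice. The Cldn2TG CAC mean was -0.67, below the WT CAC mean of -0.33, with Casp12, and 1.04, above 0.71, without it.

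WT CAC mice had more RNA of several immune cell markers than the other groups, as they had of Casp12. Summed CPM of 5 leukocyte markers was 20.9 to 58.6 in naive WT, 124 to 156 in WT CAC and 22.7 to 38.0 in Cldn2TG CAC mice. All 5, among them Coro1a and Laptm5, rose in WT CAC over naive WT and fell in Cldn2TG CAC against WT CAC mice. In these comparisons 15% and 9.54% of all genes tested were called. Of 8 macrophage and monocyte markers 6 rose in the first and 6 fell in the second of these comparisons, with a summed level of 162 to 195, 211 to 445 and 105 to 150.3 CPM. In WT CAC mouse 4, whose Casp12 was 4.62 CPM, the macrophage sum was the lowest of its group at 211 CPM, while its leukocyte sum of 124 CPM was above all mice of the other groups and its Casp6 level was not. Of 7 T cell markers 6 moved in the same way (3.78 to 8.17, 17.3 to 32.1 and 4.51 to 8.79 CPM). Of 6 neutrophil markers Ly6g alone passed the filter on low counts in every comparison, and it rose in the first and was not called in the second. S100a8, S100a9 and Csf3r passed it only through the WT CAC mice, in which they were high, so their calls are not counted here. The summed level of the 6, most of it Ly6g, was 137 to 208 CPM in naive WT, 299.9 to 378 CPM in WT CAC and 302 to 351 CPM in Cldn2TG CAC mice. The treated groups overlapped in this sum, which cannot be read as a neutrophil level. Naive WT mouse 2 had 197 CPM of Ly6g and 0 CPM of S100a9, and Retnlg had no counts in naive WT mice. S100a9 was at 0 to 0.304 CPM in naive WT, 0.762, 22.1 and 11.9 CPM in WT CAC and 0.138 to 0.152 CPM in Cldn2TG CAC mice. Of 12 epithelial markers none was called in these comparisons with all mice or without any of the other mice. Without mouse 4, where more genes were called in all, Car1, Slc26a3 and Cdx1 were called as higher in Cldn2TG CAC than in WT CAC mice (log2 1.31, 1.78 and 0.65), and Slc26a3 and Cdx1 as lower in WT CAC than in naive WT mice (log2 -1.22 and -0.41). Krt8 was higher in Cldn2TG CAC than in naive WT mice, and without mouse 1 Slc26a3 was called in its place. In whole tissue, fewer cells of a type and less RNA per cell cannot be told apart, and the part of cell makeup in the caspase values was not tested.

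The other marker lists were read in Cldn2TG CAC against WT CAC mice first, where 9.54% of all genes were called. There Cd79a fell among 5 B cell markers, and Col1a2 and Col3a1 fell among 6 fibroblast markers. Pecam1 and Cdh5 fell among 5 endothelial markers, and none of 6 smooth muscle markers was called there. In WT CAC against naive WT mice none of these B cell, fibroblast, endothelial or smooth muscle markers was called, beside 15% of all genes. Their summed levels were 3.52 to 28.8, 24.8 to 47.8 and 2.81 to 17.6 CPM for B cells and 292 to 422, 446 to 1119 and 181 to 260.4 CPM for fibroblasts in naive WT, WT CAC and Cldn2TG CAC mice. In the same order they were 31.3 to 39.9, 33.0 to 42.9 and 19.5 to 22.7 CPM for endothelium and 1954 to 3966, 1036 to 2875 and 939 to 1452 CPM for smooth muscle. In Cldn2TG CAC against naive WT mice Acta2, Myh11, Col1a2, Pecam1, Cdh5, Kdr and the monocyte marker Cd14 fell, beside 10% of all genes called. Ly6g, which was above 136 CPM in every mouse, rose. Without naive WT mouse 1, 4 of 5 leukocyte, 1 of 8 macrophage and monocyte, 1 of 7 T cell and 4 of 5 B cell markers were called as higher in WT CAC than in naive WT mice, beside 3.96% of all genes. Between Cldn2TG CAC and naive WT mice 6.25% of all genes were called without it. The calls were Des and Acta2 for smooth muscle, Cdh5 and Pecam1 for endothelium and none for fibroblasts. Without WT CAC mouse 4, beside 25.7% of all genes, 8 of 8 macrophage and monocyte and 4 of 6 fibroblast markers were called as higher and 4 of 6 smooth muscle markers as lower in WT CAC than in naive WT mice. Leaving out any 1 of the other 5 mice left 0 to 4 leukocyte and 0 to 3 macrophage markers called there. The counts were 0 to 5 for T cell, 0 to 4 for B cell and 0 to 1 for fibroblast markers. No smooth muscle marker was called in these fits, beside 0.847% to 7.9% of all genes. Between Cldn2TG CAC and WT CAC mice, 8 of 8 macrophage and monocyte, 7 of 7 T cell, 4 of 6 fibroblast and 3 of 5 endothelial markers were called as lower without mouse 4, beside 19.2% of all genes. Without any 1 of the others these counts were 0 to 5, 0 to 4, 0 to 1 and 0 to 1, and that of the 5 leukocyte markers was 3 to 5.

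**Figure D4:**
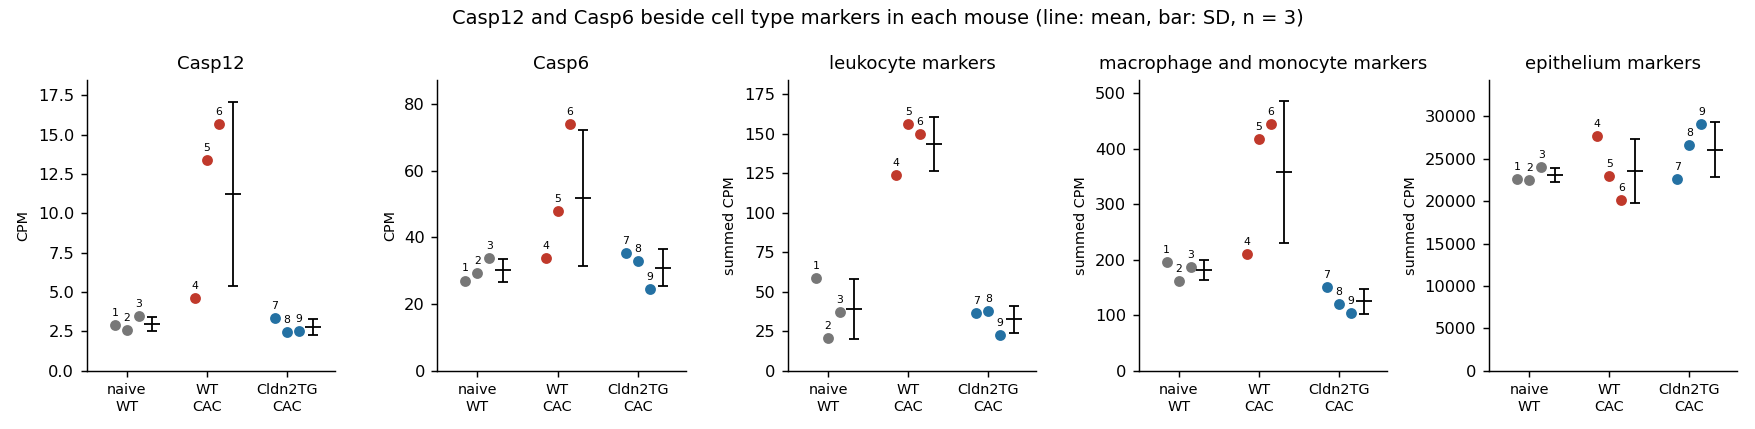
CPM of Casp12 and Casp6 and the summed CPM of leukocyte, macrophage and monocyte, and epithelial markers (y axes, each from 0) in each mouse, with the mean and SD of 3 mice in black. Leukocyte markers summed to 124 to 156 CPM in WT CAC mice and to 58.6 CPM or less in the others, while epithelial sums overlapped between groups.

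Il1b, the gene of the IL-1β precursor, varied most of 4 genes whose proteins inflammatory caspases cleave or, for Ninj1, that act after the cleavage. It was at 0.697, 0.402 and 0.695 CPM in naive WT mice, 1.78, 18.8 and 10.0 CPM in WT CAC mice, and 0.620, 0.456 and 0.886 CPM in Cldn2TG CAC mice. All WT CAC mice were above the others, with mouse 4 again the lowest of its group. It rose 17.1-fold over naive WT (log2 4.10, SE 0.84, edgeR adjusted p = 0.0249) and was 16-fold lower in Cldn2TG CAC than in WT CAC mice (log2 -4.00, SE 0.86, adjusted p = 0.0322), and the calls were lost without mouse 1, 2, 3 or 6 (adjusted p up to 0.102) and without mouse 5, 6, 7, 8 or 9 (adjusted p up to 0.138). With no filter on low counts neither passed (adjusted p = 0.0898 and 0.140). Il18 ran the other way, at 191.5, 156 and 107 CPM, 109.6, 84.9 and 80.1 CPM, and 127, 136 and 155 CPM. It was 1.5-fold higher in Cldn2TG CAC than in WT CAC mice (log2 0.58, SE 0.15, adjusted p = 0.0490), a call near the threshold that 10 of 14 alternatives lost, and 1.63-fold lower in WT CAC than in naive WT mice without passing (adjusted p = 0.0710), which it did without mouse 4 (log2 -0.86, adjusted p = 0.0322). Gsdmd, the gene of gasdermin D, was at 231.7, 226.5 and 209.5 CPM in naive WT mice, 367.5, 377 and 414 CPM in WT CAC mice, and 284, 309 and 289 CPM in Cldn2TG CAC mice. It rose 1.77-fold in WT CAC (log2 0.82, SE 0.11, adjusted p = 0.00806) and 1.33-fold in Cldn2TG CAC (log2 0.41, SE 0.09, adjusted p = 0.0192) over naive WT mice. Its level was 1.34-fold lower in Cldn2TG CAC than in WT CAC mice without passing (log2 -0.42, SE 0.12, adjusted p = 0.0577), although the groups did not overlap, and it passed without mouse 4 (log2 -0.44, adjusted p = 0.0352). The call for WT CAC against naive WT mice was lost without mouse 2 (0.0529), and that for Cldn2TG CAC against naive WT mice with library size only (0.0558), with all 9 mice in the fit (0.0570) and without mouse 3 (0.0859) or 8 (0.0799). Ninj1, whose protein ruptures the membrane after the pores form, was at 28.4 to 35.2 CPM in all 9 mice and was not called.

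Inflammasome genes recruit caspase-1. Of 10 sensors and adaptors that passed the filter on low counts in every comparison, Nlrp6, an epithelial sensor, was called in both comparisons with WT CAC mice. Of all genes, 15% were called in WT CAC against naive WT and 9.54% in Cldn2TG CAC against WT CAC mice. Nlrp6 was at 310.0, 333.7 and 320.1 CPM in naive WT mice, 146, 131 and 93.7 CPM in WT CAC mice, and 251, 299.5 and 214 CPM in Cldn2TG CAC mice. It was 2.55-fold lower in WT CAC than in naive WT mice (log2 -1.35, SE 0.16, edgeR adjusted p = 0.00664), a call kept in all 14 alternatives, and 2.03-fold higher in Cldn2TG CAC than in WT CAC mice (log2 1.02, SE 0.19, adjusted p = 0.0161), a call lost without mouse 5, 7, 8 or 9 (0.0536 to 0.0801). Pycard, the adaptor that joins sensors to caspase-1, was at 161 to 209 CPM, and Naip1, a receptor for bacterial proteins, at 138 to 218 CPM, and neither was called. In Cldn2TG CAC against naive WT mice none of 10 was called, beside 10% of all genes. Nlrp1a and Nlrp3 were below the filter with all mice. Mefv, the gene of pyrin, passed it only in the comparisons with WT CAC mice, in which it was high, and Nlrp3 passed it there in some of the fits without a mouse, mouse 4 among them. Their calls in those fits are set by that selection and are not counted.

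Guanylate-binding proteins are interferon-induced factors that help caspase-4 reach bacteria and their lipopolysaccharide. Of 8 of their genes tested, 5 rose in WT CAC over naive WT mice, beside 15% of all genes. The median log2 difference over the list was 2.27, and all 8 were above 0. In Cldn2TG CAC against WT CAC mice all 8 were below 0, with a median of -1.92. Of these, 3 (Gbp4, Gbp8 and Gbp9) were called, beside 9.54% of all genes. Gbp2 was at 27.7, 32.7 and 59.9 CPM in naive WT mice, 87.6, 310.4 and 194 CPM in WT CAC mice, and 86.1, 65.5 and 28.3 CPM in Cldn2TG CAC mice. It rose 5.0-fold in WT CAC over naive WT mice (edgeR adjusted p = 0.0295), and the decrease in Cldn2TG CAC mice did not pass (log2 -1.73, adjusted p = 0.112). Gbp7 rose 2.31-fold in WT CAC mice (adjusted p = 0.0489), and Gbp3 did not pass (log2 1.96, adjusted p = 0.0623). Without mouse 4, 7 of 8 were called in each of these comparisons, beside 25.7% and 19.2% of all genes. When any 1 of the other 5 mice was left out, 0 to 2 were called over naive WT mice and 0 to 1 in Cldn2TG CAC against WT CAC mice, and without naive WT mouse 1 it was Gbp8 alone, beside 3.96% of all genes.

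Of 12 death receptor and caspase-8 complex genes tested, Ripk3, a kinase of necroptosis, rose in WT CAC over naive WT mice, beside 15% of all genes. None of the 12 was called in Cldn2TG CAC against WT CAC mice, beside 9.54% of all genes. Without mouse 4, 5 of 12 were called as higher in WT CAC over naive WT mice (Tnfsf10, Tnfrsf1a, Mlkl, Ripk3 and Tnf) and 4 of 12 as lower in Cldn2TG CAC against WT CAC mice, beside 25.7% and 19.2% of all genes, and without any 1 of the other mice none was called in either. Tnfrsf1a, the gene of TNF receptor 1, was at 88.1 to 155 CPM, Tradd, the gene of its adaptor, at 156 to 212 CPM, and Cflar, the gene of the caspase-8 inhibitor cFLIP, at 41.0 to 59.3 CPM.

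Of 8 apoptosome and mitochondrial genes around Casp9, Bax rose and Aifm1 fell (log2 -0.50, SE 0.13, edgeR adjusted p = 0.0410) in WT CAC against naive WT mice. None was called in the other comparisons. Of all genes, 15% were called in WT CAC against naive WT, 9.54% in Cldn2TG CAC against WT CAC and 10% in Cldn2TG CAC against naive WT mice. Without mouse 4, Apaf1, the core of the apoptosome, was called as higher in WT CAC than in naive WT mice (log2 0.62, adjusted p = 0.0257) and lower in Cldn2TG CAC than in WT CAC mice (log2 -0.75, adjusted p = 0.0128). Bak1, a pore-forming protein of the mitochondrial membrane, was at 98.7 to 143.5 CPM and Cycs, the gene of cytochrome c, at 72.7 to 124 CPM. Of 5 caspase inhibitors Birc6 alone fell in WT CAC mice (log2 -0.39, SE 0.10, adjusted p = 0.0379), while Xiap and Birc3 were not called. Without naive WT mouse 1 the calls of Ripk3, Bax, Aifm1 and Birc6 were lost, as the share of all genes called fell from 15% to 3.96%. The PIDDosome genes Pidd1 and Cradd were at 3.93 to 9.60 and 9.60 to 12.8 CPM and were not called in any comparison, although Casp2 was.

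Of 7 genes whose proteins are cleaved by apoptotic caspases, none was called in WT CAC against naive WT (15% of all genes) or Cldn2TG CAC against WT CAC mice (9.54%). Parp1 and Lmnb1 fell in Cldn2TG CAC against naive WT mice, beside 10% of all genes. Without mouse 4, Parp1 was called as lower and Lmna as higher in Cldn2TG CAC than in WT CAC mice (log2 -0.44 and 0.52, adjusted p = 0.0482 and 0.0421). Without mouse 1 the Lmnb1 call was lost. Lmna, the lamin cleaved by caspase-6, was at 514 to 644 CPM in naive WT, 476 to 895 CPM in WT CAC and 636 to 834 CPM in Cldn2TG CAC mice.

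Casp14, a caspase outside both groups and best known from the skin, was at 36.1, 46.8 and 41.6 CPM in naive WT mice, 21.7, 24.6 and 21.8 CPM in WT CAC mice, and 38.2, 30.1 and 43.8 CPM in Cldn2TG CAC mice. All WT CAC mice were below all others. It was 1.79-fold lower in WT CAC than in naive WT mice (log2 -0.84, SE 0.13, edgeR adjusted p = 0.0114) and 1.62-fold higher in Cldn2TG CAC than in WT CAC mice (log2 0.69, SE 0.16, adjusted p = 0.0315), with the first call lost without mouse 2 (0.0579) and the second without mouse 5, 6, 7, 8 or 9 and in lane 2 alone.

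**Figure D5:**
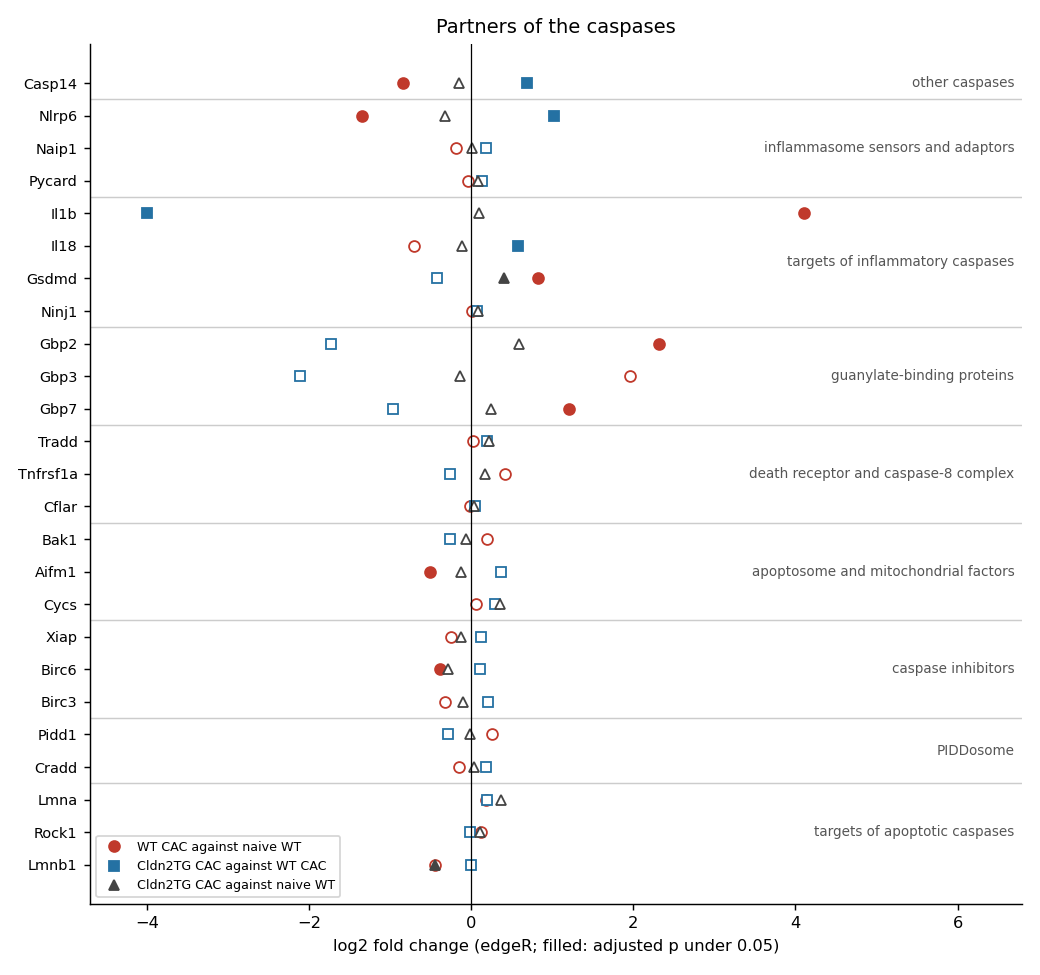
Log2 fold change (x axis, edgeR) of the named genes of each caspase list in the 3 comparisons, with filled symbols where the adjusted p was under 0.05. Il1b lies farthest out, at 4.10 in WT CAC against naive WT and -4.00 in Cldn2TG CAC against WT CAC mice. The PIDDosome genes and the 3 death receptor genes shown are open symbols between -0.28 and 0.42. These 3 are the most abundant of their list, and Ripk3, which was called, is not shown.

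The genes whose log2 CPM over the 9 mice was most like that of a caspase were listed among 13892 genes with a mean of at least 1 CPM, as a description in which differences between the 3 groups take part. For Casp12 they were Sema7a (Pearson r = 0.994), Samd5 (0.989), Mras (0.989), Slc7a5 (0.988) and Arg1 (0.988). For Casp1 they were Gm4613, Cyp2d9, Mier1, Ifit1bl2 and Nr1d1 (0.956 down to 0.934), and for Casp4 Nampt, Dhx36, Fem1c, Ppp4r3b and Fubp3 (0.927 down to 0.893). For Casp8 they were Gm10093, Rrbp1, Zfp143, Cap1 and Gnb1 (0.934 down to 0.898). No gene was on more than 1 of the 4 lists.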

How the data were processed

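Colon RNA from 9 mice was extracted with a Quick-RNA Mini-Prep kit and sequenced on a NovaSeq6000. The deposited values are whole-number counts of reads per gene, made by the authors with featureCounts without normalization, 1 column for each of 18 lanes. The files also list a merged exon length, from which TPM was computed. The study's methods name TopHat2 as the mapper and the submitters' processing notes name HISAT2. Versions, strand setting and treatment of multi-mapped reads are not given in the sources used here. The build is GRCm38, and symbols came from GENCODE M21. The deposited protocol text names the AOM and DSS treatment under controls too, so naive WT mice were taken from the treatment label. The study's methods state littermate controls and matching for age and sex, but mouse 1 differed from the others in sex-linked genes. The labels tie no mouse to a litter. The p-values set each group difference against the spread between mice within groups, and neither litter nor sex was in the fits.

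Lanes were summed. Each pair of groups was fitted alone with edgeR 4.0.16 in R 4.3.3 (TMM, filterByExpr with a minimum count of 10 and a minimum total of 15, robust two-sided quasi-likelihood test, Benjamini-Hochberg adjustment over all genes tested), and genes with an adjusted p under 0.05 were called. Intervals are 95% and come from the fit's degrees of freedom. A two-sided exact permutation test of 3 mice against 3 cannot give a p below 0.1 and was not used for calls. CPM per mouse used TMM factors over 9 mice, and log2 CPM a prior count of 2. Alternatives were DESeq2 1.42.0, library size only, upper-quartile factors, other filters, a fit of all 9 mice together, single lanes and each mouse left out. The fit was tested on simulated data.

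The members and lists were chosen with earlier results of these data known. Named were the 7 caspases, Casp14 and all genes of the lists of the PIDDosome and of targets of inflammatory caspases, with which Ninj1 was listed. Also named were the 3 most abundant genes of each other caspase list, the 2 most abundant of each marker list and checks of the labels. The 5 genes most like Casp1, Casp4, Casp12 and Casp8 were named too. Other genes are named because they were called on a list, which was seen in their values. Promoters and transcripts came from RefSeq (GRCm38.p6) and GENCODE M21. Some genes that fall under this rule are not reported here.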

Additional observations from a re-analysis of the deposited data

How the results depend on the processing

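The number of caspases called in Cldn2TG CAC against WT CAC mice was 1 and became 2 (Casp12 and Casp6) at an unadjusted p under 0.05 or with DESeq2, and 0 to 2 when a mouse was left out. In WT CAC against naive WT mice it was 2, beside 15% of all genes. It became 3 (Casp12, Casp2 and Casp6) with DESeq2 (20.9% of all genes) or with all 9 mice in the fit (20.2%). The same 3 had an unadjusted p under 0.05, as did 5032 of 15437 genes. When a mouse was left out it was 0 to 3, beside 0.847% to 25.7% of all genes. In Cldn2TG CAC against naive WT mice it was 2, beside 10% of all genes. It became 3 (Casp1, Casp4 and Casp2) without a filter on low counts, beside 9.91%. The same 3 had an unadjusted p under 0.05, as did 3896 of 15013 genes. It became 1 (Casp2) with library size only (10.6% of all genes), all 9 mice in the fit (2.83%) or lane 2 alone (7.54%). When a mouse was left out it was 0 to 1, beside 3.44% to 8.95% of all genes. A fit without a mouse has fewer samples. The inflammatory minus apoptotic difference was -0.34, 0.70 and 0.36 in the 3 comparisons and became 0.33, 0.17 and 0.50 without Casp12. Directions that reversed belonged to values that were not called. With library size only, which moved the median of all genes in Cldn2TG CAC against naive WT mice from 0.0023 to -0.111 and in Cldn2TG CAC against WT CAC mice from 0.0085 to -0.0933, Casp2, Casp8 and Casp9 were at -0.0074, -0.0786 and -0.0655 in Cldn2TG CAC against WT CAC, and Casp6 at -0.062 in Cldn2TG CAC against naive WT mice. In lane 2 alone Casp9 was at -0.0125 and Casp12 at 0.0516 in these comparisons. When a mouse was left out, the log2 difference in Cldn2TG CAC against WT CAC mice lay between -0.2015 and 0.1931 for Casp8 and between -0.0355 and 0.1228 for Casp9. In WT CAC against naive WT mice it lay between -0.2039 and 0.0939 for Casp8, and in Cldn2TG CAC against naive WT mice between -0.2581 and 0.0329 for Casp12, -0.0631 and 0.1857 for Casp6, and -0.2574 and 0.1253 for Casp8. The cause was not tested. Of 790 alternative values of single genes, 596 kept direction and side of the threshold, 170 were no longer called, 6 became called and 18 reversed. At this depth a gene with under 3 counts in a mouse could not be told from 0. No paired analysis was possible because the groups share no replicate numbers.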
